A study of Mus musculus with 36 samples.

Results

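The core of de novo fatty acid synthesis, a set of 10 genes, was followed in mouse liver across 2 genotypes and 3 feeding or drug conditions. The genes are Acly, Acss2 and Slc25a1, which supply acetyl-CoA in the cytosol, Acaca and Acacb, which make malonyl-CoA, Me1, which supplies NADPH, Fasn, which builds the chain, Thrsp, a regulatory protein, and Srebf1 and Mlxipl, which encode transcription factors. Members were the probes other than controls whose gene name in the array files equals 1 of these symbols. All 10 genes were present, with 27 probes, of 37325 genes and 56605 probes on the array, and all 10 were among the 24251 genes that passed the filter on dim probes.

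RNA abundance in liver was read on Agilent 1-colour arrays from 200 ng of RNA for each of 36 samples, in 6 groups of 6. In AAKO mice the lipase ATGL, product of Pnpla2, was absent from white adipose tissue, and CTRL mice served as controls. All were males on a C57Bl/6J background, and their age is not given in the sources used here, nor is the promoter that drives the deletion. CTRL fed and AAKO fed mice ate ad libitum, CTRL fasted and AAKO fasted mice went 24 h without food, and CTRL CL316243 and AAKO CL316243 mice were fed and got the drug CL316243 by gavage at 3 mg/kg. It activates beta 3 adrenergic receptors and so makes fat cells release fatty acids. The drug was given at Zeitgeber time (ZT, hours after lights on) 10 in 0.5% carboxymethyl cellulose, and every mouse was killed at ZT 16, in the dark phase. The fed groups belong to experiment 2 and the other 4 groups to experiment 1, so in comparisons with fed mice the condition cannot be told apart from the experiment. A gavage is described for the CL316243 groups only, so drug and gavage cannot be told apart either. Each numbered replicate is taken as 1 mouse, which the labels do not state outright, so p-values measure the spread between these samples.

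Fatty acid synthesis turns surplus carbohydrate into fat and is a main anabolic pathway of the fed liver. Citrate leaves mitochondria through the carrier encoded by Slc25a1 and is split by ATP citrate lyase (Acly), acetyl-CoA is carboxylated by the acetyl-CoA carboxylases (Acaca, Acacb), and fatty acid synthase (Fasn) condenses malonyl-CoA into palmitate with NADPH from malic enzyme (Me1) and the pentose phosphate pathway. The pathway is known to be switched on by insulin through SREBP-1c (from Srebf1) and by carbohydrate through ChREBP (Mlxipl), and to be shut off by fasting. Fat breakdown in adipose tissue releases the fatty acids that a fasting liver burns.

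The sequences just upstream of the start sites are shown for the genes on which the results below turn most. Each is the 250 bases before an annotated start on assembly GRCm38.p6, from RefSeq, written 5′ to 3′ on the strand of the gene. Capitals mark 4 motifs searched on both strands: the E-box CACGTG, the sterol regulatory core TCACNCCAC, the CCAAT box CCAAT and the GC box GGGCGG.
Thrsp, the gene that fell most on fasting in CTRL mice (chr7:97417551-97417800, minus strand): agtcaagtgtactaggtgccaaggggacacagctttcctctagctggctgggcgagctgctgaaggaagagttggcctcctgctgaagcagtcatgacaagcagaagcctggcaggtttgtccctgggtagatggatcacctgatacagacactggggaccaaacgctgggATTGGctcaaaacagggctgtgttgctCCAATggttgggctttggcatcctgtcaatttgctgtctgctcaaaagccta
Fasn (chr11:120824548-120824797, minus strand): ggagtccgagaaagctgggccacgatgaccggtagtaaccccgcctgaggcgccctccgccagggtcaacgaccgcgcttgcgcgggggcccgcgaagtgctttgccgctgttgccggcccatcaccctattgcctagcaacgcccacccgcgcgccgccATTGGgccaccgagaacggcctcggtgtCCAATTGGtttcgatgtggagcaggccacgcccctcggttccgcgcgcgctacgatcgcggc
Acly, whose genotype difference turned between conditions (chr11:100528001-100528250, minus strand): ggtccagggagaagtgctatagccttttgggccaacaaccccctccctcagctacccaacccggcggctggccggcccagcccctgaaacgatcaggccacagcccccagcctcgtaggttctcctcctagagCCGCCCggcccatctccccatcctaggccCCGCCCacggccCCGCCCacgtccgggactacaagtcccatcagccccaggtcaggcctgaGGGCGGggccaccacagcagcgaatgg
Srebf1, start nearest the 3′ end of the gene (chr11:60210472-60210721, minus strand): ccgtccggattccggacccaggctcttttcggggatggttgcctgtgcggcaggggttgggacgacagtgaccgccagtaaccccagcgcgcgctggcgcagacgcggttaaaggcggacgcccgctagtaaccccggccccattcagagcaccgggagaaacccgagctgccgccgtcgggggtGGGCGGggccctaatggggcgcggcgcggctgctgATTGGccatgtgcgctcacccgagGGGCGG
Mlxipl, upstream start (chr5:135089640-135089889, plus strand): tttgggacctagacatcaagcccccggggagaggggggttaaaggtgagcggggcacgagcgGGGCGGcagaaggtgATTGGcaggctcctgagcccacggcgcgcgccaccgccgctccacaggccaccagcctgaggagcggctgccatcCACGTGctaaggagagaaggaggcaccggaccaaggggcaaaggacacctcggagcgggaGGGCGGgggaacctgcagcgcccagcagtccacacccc
Mlxipl, downstream start (chr5:135106641-135106890, plus strand): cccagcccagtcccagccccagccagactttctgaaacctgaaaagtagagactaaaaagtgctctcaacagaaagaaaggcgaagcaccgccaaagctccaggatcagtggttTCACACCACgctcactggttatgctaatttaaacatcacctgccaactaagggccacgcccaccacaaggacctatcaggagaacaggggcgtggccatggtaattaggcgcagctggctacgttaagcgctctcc

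The table held 14 such windows for the 10 genes. A CCAAT box lay in 9 of the 14 windows (8 of 10 genes) against 33.8% of all 32851 windows, and a GC box in 7 (6 genes) against 32.7%. In the Fasn window CCAATTGG counts as a match on each strand, so 2 of its 3 CCAAT matches overlap. The E-box was found in 2 windows, the upstream Mlxipl window and that of Slc25a1, against 6.02% of all windows. The sterol regulatory core was found only in the downstream Mlxipl window, against 1.05% of all. A match describes the letters in the window and is not a measured binding site.

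Array quality was even, with 33130 to 37200 probes well above background per array (58.5% to 65.7%). Levels are given in log2 units above or below each array's 75th percentile, so 0 is the brightness of that percentile. Values of a group are means ± SD over 6 mice, and values beside a fold change are standard errors of a limma fit over all 36 arrays with wash batch as a term. A gene is called at a Benjamini-Hochberg adjusted p under 0.05 over all genes tested. The summed signal of 8 hepatocyte markers lay between 12.1 and 12.5 in every mouse. The brightest markers weigh most in such a sum. Of the 8, 3 were called higher and 4 lower in AAKO than in CTRL fasted mice. The same counts, 3 and 4, held for AAKO fasted against AAKO fed mice. Against CTRL fed mice, 3 were lower after CL316243, and 2 were higher and 1 lower in the fast. After CL316243, 3 were higher in AAKO than in CTRL mice. Pnpla2 is deleted in white adipose tissue, so its level in liver checks no label. It ran from 5.49 to 6.86 in CTRL fasted and from 7.12 to 7.48 in AAKO fasted mice (1.30 ± 0.19, adjusted p = 8.25e-07). In whole liver, fewer cells of a type and less RNA per cell cannot be told apart.

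Each gene is represented by its brightest probe. On mm9, the build of the array files, these probes lie at chr11:120668460-120668519 (Fasn), chr11:100337674-100337733 (Acly), chr2:155388385-155388444 (Acss2), chr16:17925661-17925720 (Slc25a1), chr11:84215093-84215152 (Acaca), chr5:114700702-114700761 (Acacb), chr9:86475077-86475136 (Me1), chr7:104561649-104561708 (Thrsp), chr11:60013214-60013273 (Srebf1) and chr5:135613705-135613764 (Mlxipl). The files do not say which exon or UTR a probe lies in. All 10 were well above background on all 36 arrays and none was saturated. Signals of different probes cannot be set against each other, so levels are compared only within a gene.

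**Figure D1:**
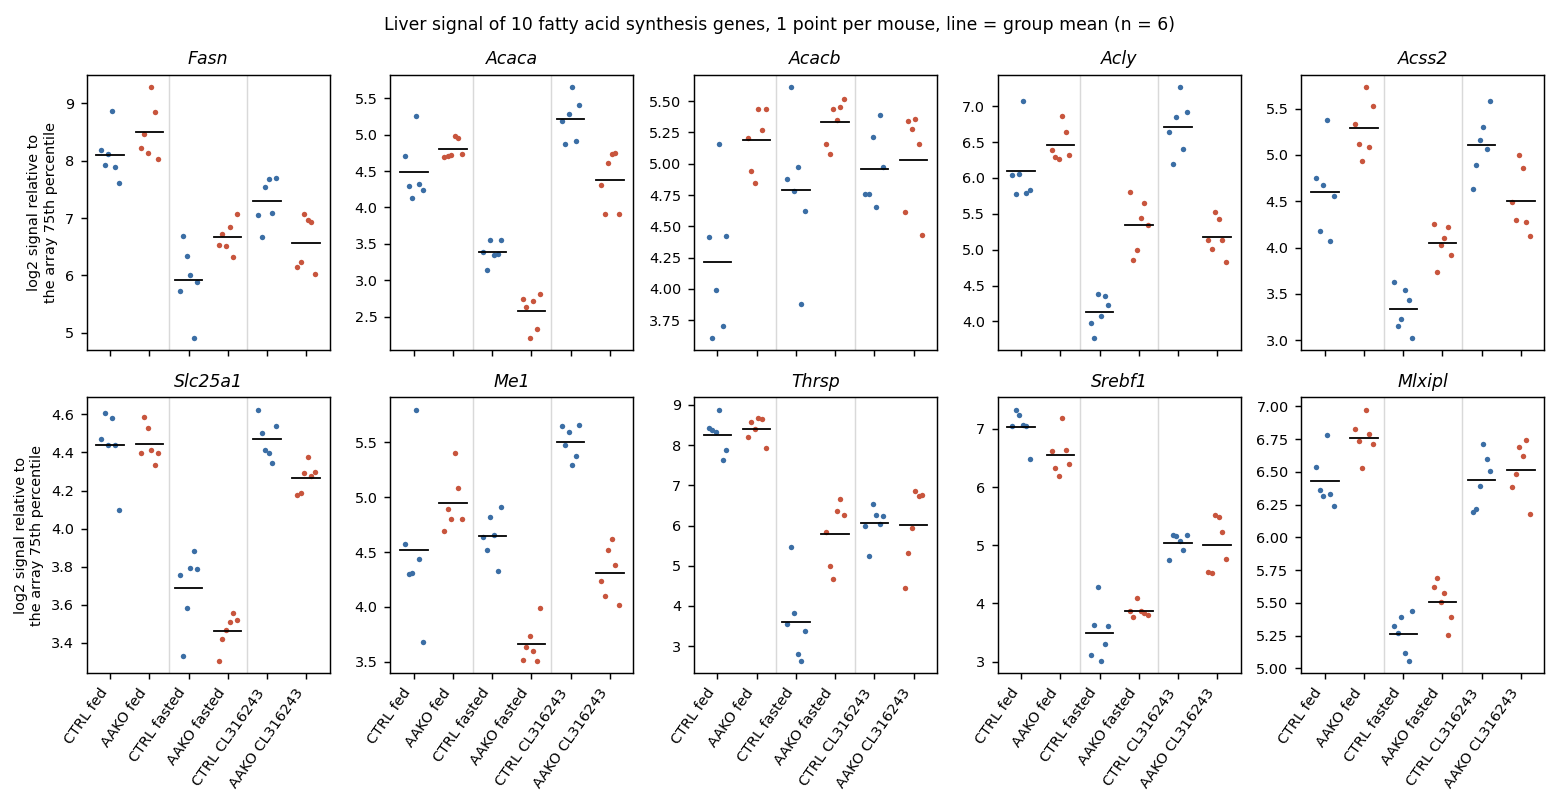
Log2 signal relative to the array's 75th percentile (vertical axis) of the 10 genes in the 6 groups (horizontal axis), 1 point per mouse and a line at the mean of 6. Fasted groups sit lowest for Fasn, Acly, Acss2, Acaca, Slc25a1, Thrsp, Srebf1 and Mlxipl in CTRL mice, while Acacb is lowest in CTRL fed mice.

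The 24 h fast lowered most of the pathway in both genotypes. In CTRL mice 9 of 10 genes were called, 8 lower and 1 higher, where 43.8% of all genes tested were called, 24.0% lower and 19.8% higher. In AAKO mice 9 of 10 were called, all 9 lower, where 63.6% of all genes were called and 36.1% lower. The median change of the 10 genes was -1.21 in CTRL and -1.27 in AAKO on the log2 scale, against -0.05 and -0.10 over all genes. The values of 8 genes in CTRL and of 9 in AAKO did not overlap between fasted and fed mice, which held for 22.8% and 42.7% of all genes tested. Within wash batches 1 and 2 the fit called 8 and 9 genes in CTRL, and 9 and 9 in AAKO. Of 7 adipocyte markers 2 were higher and 1 lower on fasting in CTRL, with a summed signal of 4.69 to 7.71 in CTRL fasted and 1.54 to 1.93 in CTRL fed mice. That sum was carried by Cidec (6.37 ± 1.05 against 0.49 ± 0.30), while Adipoq was well above background in only 2 CTRL fed mice. In AAKO mice 3 adipocyte markers were higher and 1 lower, with sums of 3.51 to 5.75 fasted and 1.14 to 1.41 fed. Neutrophil markers were higher on fasting in AAKO mice (4 of 5, sums of 3.21 to 6.95 against 0.50 to 5.50) and none was called in CTRL. Cholangiocyte markers were lower, 3 of 5 in each genotype, Kupffer cell markers 2 of 5 in CTRL and 3 of 5 in AAKO, and erythroid markers 1 of 2 and 2 of 2. Endothelial markers were higher, 1 of 5 in CTRL and 3 of 5 in AAKO, where 1 was lower, and stellate cell markers were lower, 1 of 5 and 2 of 5, with 1 higher in AAKO. The part of any of these cell types was not tested.

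Thrsp, the small nuclear protein also known as Spot 14 that promotes lipogenesis, fell most in CTRL mice. It ran from 7.63 to 8.87 (median 8.35) in CTRL fed mice and from 2.63 to 5.47 (median 3.45) in CTRL fasted mice, a 25.0-fold decrease (log2 fold change -4.64 ± 0.40, adjusted p = 5.62e-11). In AAKO mice it ran from 7.93 to 8.68 (median 8.49) fed and from 4.67 to 6.65 (median 6.04) fasted, a 6.11-fold decrease (-2.61 ± 0.40, adjusted p = 9.21e-07). Every fasted mouse lay below every fed mouse of its genotype, and CTRL fasted replicate 2, at 5.47, stood well above the other CTRL fasted mice.

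Srebf1, the gene of SREBP-1c and SREBP-1a, came next in CTRL mice and fell most in AAKO mice. It ran from 6.48 to 7.33 (median 7.05) in CTRL fed and from 3.01 to 4.28 (median 3.46) in CTRL fasted mice, a change of -3.54 ± 0.19, adjusted p = 3.99e-15. In AAKO mice it ran from 6.19 to 7.18 (median 6.51) fed and from 3.77 to 4.09 (median 3.85) fasted, a change of -2.69 ± 0.19, adjusted p = 1.25e-13. Neither pair of groups overlapped. Mlxipl changed less, by -1.16 ± 0.11, adjusted p = 2.11e-10 in CTRL and -1.25 ± 0.11, adjusted p = 7.13e-12 in AAKO, with a range over all 36 mice of 5.06 to 6.97.

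Fasn, the multifunctional synthase, ran from 7.62 to 8.86 (median 8.02) in CTRL fed mice and from 4.91 to 6.69 (median 5.95) in CTRL fasted mice (4.51-fold lower, -2.17 ± 0.26, adjusted p = 3.37e-08). In AAKO mice it ran from 8.03 to 9.28 (median 8.34) fed and from 6.32 to 7.06 (median 6.63) fasted (3.55-fold lower, -1.83 ± 0.26, adjusted p = 2.45e-07). All fasted mice were below all fed mice of their genotype.

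Of the genes that supply acetyl-CoA, Acly ran from 5.77 to 7.07 (median 5.94) in CTRL fed and from 3.77 to 4.39 (median 4.15) in CTRL fasted mice (-1.96 ± 0.20, adjusted p = 1.25e-09). In AAKO mice Acly ran from 6.27 to 6.87 (median 6.36) fed and from 4.85 to 5.81 (median 5.40) fasted (-1.11 ± 0.20, adjusted p = 9.55e-06). Both falls were free of overlap. Acss2, the cytosolic acetyl-CoA synthetase, fell in both genotypes (-1.27 ± 0.18, adjusted p = 7.93e-07 in CTRL, -1.24 ± 0.18, adjusted p = 3.72e-07 in AAKO). Slc25a1 fell by less than 1 log2 unit in each (-0.75 ± 0.08, adjusted p = 6.09e-09 in CTRL, -0.98 ± 0.08, adjusted p = 4.65e-12 in AAKO). Its 6 group SDs lay between 0.07 and 0.20, and its fasted and fed mice did not overlap.

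The 2 carboxylases parted. Acaca, the cytosolic isoform that feeds Fasn, ran from 4.13 to 5.26 (median 4.31) in CTRL fed and from 3.14 to 3.56 (median 3.38) in CTRL fasted mice (-1.10 ± 0.17, adjusted p = 3.00e-06). In AAKO mice Acaca ran from 4.69 to 4.98 (median 4.73) fed and from 2.21 to 2.81 (median 2.67) fasted (-2.22 ± 0.17, adjusted p = 6.53e-13), again with no overlap. Acacb, the isoform at the mitochondrial surface whose malonyl-CoA restrains fatty acid oxidation, was the only gene called higher in CTRL (0.57 ± 0.22, adjusted p = 0.0373). Its fasted range of 3.88 to 5.61 overlapped the fed range of 3.61 to 5.16. The Acacb call was lost when CTRL fasted replicate 1, 2, 3 or 4, or CTRL fed replicate 2, 3 or 5, was left out (adjusted p 0.0539 to 0.131, values 0.42 to 0.57), with only the 2 groups in the fit (adjusted p = 0.152) and with no filter on dim probes (adjusted p = 0.0578). In AAKO mice Acacb changed by 0.15 ± 0.22, adjusted p = 0.591. Other Acacb probes parted there. The probe nearest the 5′ end was at -2.56 ± 0.17 in AAKO fed and -1.89 ± 0.11 in AAKO fasted mice. A probe in the middle of the gene was at -0.52 ± 0.21 and -0.76 ± 0.28. Their responses departed from the main probe's by 0.52 and -0.39 (exact permutation tests, two-sided, adjusted p = 0.0285 and 0.057).

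Me1, which makes NADPH while turning malate into pyruvate, was called in AAKO mice alone. In CTRL mice it ran from 3.68 to 5.80 (median 4.38) fed and from 4.33 to 4.92 (median 4.64) fasted, a difference that was not called (0.13 ± 0.19, adjusted p = 0.630). Without CTRL fed replicate 4, the highest fed mouse, the Me1 difference was 0.38 with adjusted p = 0.0299. A second Me1 probe went the other way, at 4.62 ± 0.57 in CTRL fed and 4.27 ± 0.27 in CTRL fasted mice. The 2 probes differed in this response by -0.47 (exact permutation test, two-sided, adjusted p = 0.0359). In AAKO mice Me1 ran from 4.69 to 5.41 (median 4.85) fed and from 3.51 to 3.99 (median 3.62) fasted (-1.28 ± 0.19, adjusted p = 8.14e-07), with no overlap.

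**Figure D2:**
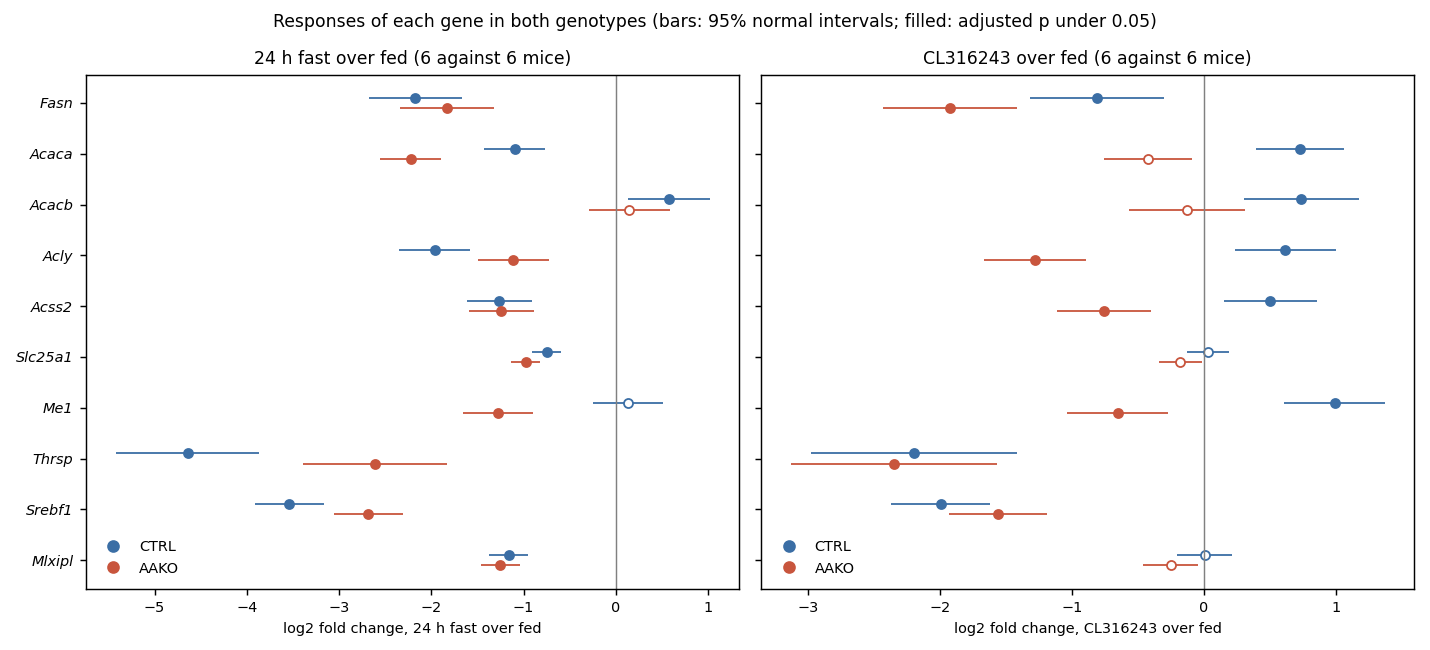
Log2 fold change (horizontal axis) of each gene in CTRL (blue) and AAKO (red) mice, for the fast over fed (left) and CL316243 over fed (right), 6 against 6 mice. Bars are normal intervals from the standard error and filled points are called. Fasting changes lie left of 0 for every gene but Acacb and, in CTRL, Me1, whereas CL316243 gave higher Acaca, Acacb, Acly, Acss2 and Me1 in CTRL mice and no called increase in AAKO mice.

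CL316243 split the pathway in CTRL mice. Against CTRL fed mice, Acly, Acss2, Acaca, Acacb and Me1 were higher and Fasn, Thrsp and Srebf1 were lower, 8 of 10 genes called where 23.1% of all genes were called, 10.5% higher and 12.7% lower. In AAKO mice no gene was called higher and 6 were called lower, where 31.4% of all genes were called and 15.9% lower. The member medians were 0.27 in CTRL and -0.70 in AAKO, against -0.03 and -0.01 over all genes. Only 2 genes in CTRL and 5 in AAKO had values that did not overlap, against 12.3% and 15.0% of all genes. The CTRL count of 8 fell to 5 with only the 2 groups in the fit and to 5 without CTRL fed replicate 5, and was 2 and 4 within wash batches 1 and 2. The AAKO count was 6 and 3 within the same batches.

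Me1 gave the highest increase among the 10 genes in CTRL mice. It ran from 5.30 to 5.66 (median 5.53) after CL316243 against 3.68 to 5.80 fed (1.99-fold, 0.99 ± 0.19, adjusted p = 3.18e-04), and 1 fed mouse, replicate 4, lay above all treated mice. Acaca after CL316243 ran from 4.87 to 5.66 (median 5.24) (0.73 ± 0.17, adjusted p = 0.00195). Acly ran from 6.19 to 7.27 (median 6.75) (0.62 ± 0.20, adjusted p = 0.0204), where the highest fed mouse, replicate 4 at 7.07, was within the treated range. These enzymes overlapped between treated and fed CTRL mice.

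The increases of Acacb and Acss2 in CTRL mice were 0.74 ± 0.22, adjusted p = 0.0155 and 0.51 ± 0.18, adjusted p = 0.0393. Of these, Acss2 lost its call without any 1 of 8 mice (CTRL CL316243 replicates 3, 4, 5 and 6, CTRL fed replicates 1, 2, 5 and 6, values 0.38 to 0.52, adjusted p 0.0547 to 0.129), with only the 2 groups in the fit (adjusted p = 0.125) and with no filter on dim probes (adjusted p = 0.0638). With all tested probes averaged, its value was -0.17 (adjusted p = 0.664). The Acacb call was lost without CTRL fed replicate 5 (0.62, adjusted p = 0.0515) and with only the 2 groups in the fit (adjusted p = 0.0542). Its middle probe was at -0.56 ± 0.17 after CL316243 and -0.70 ± 0.14 fed, and that nearest the 5′ end at -2.46 ± 0.21 and -2.82 ± 0.25. These rose less than the main Acacb probe, by -0.60 and -0.38 (exact permutation tests, two-sided, adjusted p = 0.113 and 0.27). The Acly call was lost without CTRL fed replicate 2 or 5 or CTRL CL316243 replicate 4 (0.50 to 0.56, adjusted p 0.0520 to 0.0695) and with only the 2 groups in the fit (adjusted p = 0.0883). Slc25a1 (0.03 ± 0.08, adjusted p = 0.840) and Mlxipl (0.01 ± 0.11, adjusted p = 0.970) were not called.

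The genes lower after CL316243 in CTRL mice were the chain builder and 2 regulators. Thrsp ran from 5.23 to 6.53 (median 6.14) (4.58-fold lower than fed, -2.20 ± 0.40, adjusted p = 1.30e-04) and Srebf1 from 4.74 to 5.17 (median 5.11) (-1.996 ± 0.19, adjusted p = 8.46e-09), both below every CTRL fed mouse. Fasn ran from 6.68 to 7.71 (median 7.31) (-0.81 ± 0.26, adjusted p = 0.0215), with 2 treated mice above the lowest fed mouse. Its call was lost without CTRL CL316243 replicate 2 or CTRL fed replicate 4 (-0.69 and -0.65, adjusted p 0.0641 and 0.0732).

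In AAKO mice the acetyl-CoA enzymes and Me1 were lower after CL316243. Acly ran from 4.83 to 5.53 (median 5.13) against 6.27 to 6.87 fed (2.43-fold lower, -1.28 ± 0.20, adjusted p = 7.06e-06), with no overlap. A second Acly probe fell less, at -2.18 ± 0.20 after CL316243 and -1.45 ± 0.31 fed. Me1 (-0.65 ± 0.19, adjusted p = 0.0101) and Acss2 (-0.76 ± 0.18, adjusted p = 0.00159) were lower too, but with all tested probes averaged neither was called (Me1 -0.42, adjusted p = 0.0738; Acss2 -0.56, adjusted p = 0.0803). Fasn was lower as well (3.79-fold, -1.92 ± 0.26, adjusted p = 9.70e-07). Thrsp (-2.35 ± 0.40, adjusted p = 3.02e-05) and Srebf1 (-1.56 ± 0.19, adjusted p = 2.04e-07) were called lower, as they were in CTRL mice. Acaca (-0.42 ± 0.17, adjusted p = 0.0566), Acacb (-0.13 ± 0.23, adjusted p = 0.717), Slc25a1 (-0.18 ± 0.08, adjusted p = 0.0996) and Mlxipl (-0.25 ± 0.11, adjusted p = 0.0737) were not called. With all tested probes averaged, Slc25a1 (-0.31, adjusted p = 0.00534), Acaca (-0.47, adjusted p = 0.0252) and Mlxipl (-0.26, adjusted p = 0.0309) were called lower, as were Slc25a1 (-0.20, adjusted p = 0.0434) and Acaca (-0.44, adjusted p = 0.0398) under normexp background correction. Acaca was also called in the authors' deposited values (-0.44, adjusted p = 0.0354), with the replicate number as a block (adjusted p = 0.0317) and without AAKO CL316243 replicate 3, 4 or 5 (-0.51 to -0.48, adjusted p 0.0315 to 0.0458), and Mlxipl without AAKO CL316243 replicate 3 or 5 or AAKO fed replicate 3 (-0.30 to -0.29, adjusted p 0.0374 to 0.0470). A second Mlxipl probe, further 3′, went the other way, at 2.49 ± 0.12 after CL316243 and 2.35 ± 0.06 fed in AAKO mice. It departed from the main probe by 0.38 (exact permutation test, two-sided, adjusted p = 0.0202). Kupffer and stellate cell markers were lower after CL316243: 2 of 5 and 3 of 5 in CTRL, 4 of 5 and 3 of 5 in AAKO, and endothelial markers 4 of 5 and 2 of 5. Erythroid markers were lower too, 1 of 2 in CTRL and 2 of 2 in AAKO, and cholangiocyte markers 1 of 5 in each genotype. Of 7 adipocyte markers 1 was higher in CTRL. The summed stellate signal ran from 2.99 to 4.00 in CTRL CL316243 against 4.01 to 4.54 in CTRL fed mice. The part of these cell types in these results was not tested.

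Fasting and CL316243 can be compared within experiment 1. In CTRL mice all but Acacb were called lower in the fast, 9 of 10 genes where 37.1% of all genes were called and 19.3% lower. In AAKO mice 6 were called, all lower (Acaca, Acss2, Slc25a1, Me1, Srebf1 and Mlxipl), where 60.0% of all genes were called and 34.0% lower. The member medians were -1.45 and -0.56, against -0.02 and -0.08 over all genes. The values of 7 and 5 genes did not overlap, against 17.9% and 37.3% of all genes. Within wash batches 1 and 2 CTRL mice gave counts of 8 and 9, and AAKO mice gave 4 and 6.

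Acly carried the widest contrast. In CTRL mice it lay 6.00-fold lower in the fast than after CL316243 (-2.58 ± 0.20, adjusted p = 1.24e-11), while in AAKO mice the 2 states were not called apart (0.17 ± 0.20, adjusted p = 0.477). Thrsp (-2.44 ± 0.40, adjusted p = 9.89e-06 in CTRL, -0.26 ± 0.40, adjusted p = 0.591 in AAKO) and Fasn (-1.36 ± 0.26, adjusted p = 8.20e-05 in CTRL, 0.09 ± 0.26, adjusted p = 0.774 in AAKO) had the same outcome. Acaca was lower in the fast in both genotypes (-1.83 ± 0.17 in CTRL and -1.80 ± 0.17 in AAKO, both called). So were, in the same order, Slc25a1 (-0.78 ± 0.08 and -0.80 ± 0.08), Mlxipl (-1.17 ± 0.11 and -1.002 ± 0.11), Srebf1 (-1.54 ± 0.19 and -1.12 ± 0.19) and Me1 (-0.86 ± 0.19 and -0.63 ± 0.19). Acss2 in AAKO mice (-0.49 ± 0.18, adjusted p = 0.0204) lost its call in the authors' deposited values (-0.35, adjusted p = 0.0764), under quantile normalization (-0.38, adjusted p = 0.0629), and without AAKO CL316243 replicate 3 or 4 or AAKO fasted replicate 2 (-0.44 to -0.40, adjusted p 0.0515 to 0.0708). Endothelial markers were higher in the fast than after CL316243, 4 of 5 in each genotype. In AAKO mice so were neutrophil markers (4 of 5, sums of 3.21 to 6.95 against 1.63 to 3.45) and adipocyte markers (3 of 7, with 1 lower, sums of 3.51 to 5.75 against 1.01 to 1.74), and cholangiocyte markers were lower (2 of 5). In CTRL mice 1 of 7 adipocyte markers was higher and 1 lower, with sums of 4.69 to 7.71 against 2.09 to 3.91. Cholangiocyte markers were lower there too (1 of 5), and no neutrophil marker was called. Of 8 hepatocyte markers 3 were higher and 1 lower in CTRL, and 3 higher and 4 lower in AAKO. Stellate cell markers were higher in CTRL mice (2 of 5) and in AAKO mice (2 of 5, with 1 lower). Erythroid markers parted in CTRL mice (1 higher and 1 lower), and 1 of 2 was lower in AAKO mice. The part of these cell types was not tested.

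Between genotypes, no member was called in fed mice, where 0.0783% of all genes (19) were called by limma and 1645 had an unadjusted p under 0.05. The member median was 0.35, against -0.000656 over all genes, and 9 of 10 point estimates were above 0. Acacb had the highest value (0.97 ± 0.22, adjusted p = 0.0948), with AAKO fed mice at 4.85 to 5.44 and CTRL fed mice at 3.61 to 5.16. Acss2 (0.69 ± 0.18, adjusted p = 0.211) came next, and Srebf1 was the gene below 0 (-0.47 ± 0.19, adjusted p = 0.635). CTRL fed replicate 4 was the highest CTRL fed mouse for 8 of the genes, and without it 3 genes were called higher in AAKO: Acacb (1.19, adjusted p = 0.00702), Acss2 (0.87, adjusted p = 0.0121) and Me1 (0.68, adjusted p = 0.0316). These Acacb values are those of the main probe. The probe nearest the 5′ end was at -2.56 ± 0.17 in AAKO fed and -2.82 ± 0.25 in CTRL fed mice. A probe in the middle of Acacb was at -0.52 ± 0.21 and -0.70 ± 0.14. Their genotype differences departed from the main probe's by -0.71 and -0.79 (exact permutation tests, two-sided, adjusted p = 0.0359 and 0.062). The Acss2 probe nearest its main one was at 2.13 ± 0.22 in AAKO fed and 1.53 ± 0.47 in CTRL fed mice. Its 2 probes of another transcript went the other way, at -0.06 ± 1.40 against 0.26 ± 1.23 and -2.325 ± 0.69 against -2.12 ± 0.57. These departed from the main Acss2 probe by -1.01 and -0.90 (same test, adjusted p = 0.242 and 0.0285).

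In fasted mice the genotypes differed in 8 of the 10 genes, in both directions. Higher in AAKO were 5 (Thrsp, Acly, Fasn, Acss2 and Acacb) and lower were 3 (Me1, Acaca and Slc25a1), where 49.2% of all genes were called, 22.0% higher and 27.2% lower. The member median was 0.46, against -0.03 over all genes, and 4 genes did not overlap, where 21.3% of all genes did not. Within wash batches 1 and 2 the count was 6 and 6, and without CTRL fasted replicate 5 it was 5.

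Thrsp was 4.56-fold higher in AAKO fasted mice (2.19 ± 0.40, adjusted p = 2.82e-05), with values of 4.67 to 6.65 against 2.63 to 5.47 in CTRL, where replicate 2 was within the AAKO range. Acly was 2.33-fold higher (1.22 ± 0.20, adjusted p = 4.60e-06), with AAKO fasted mice at 4.85 to 5.81 and CTRL fasted mice at 3.77 to 4.39. Acss2 was higher by 0.71 ± 0.18, adjusted p = 0.00139, with 3.74 to 4.25 against 3.03 to 3.63. For Acly and Acss2 every AAKO mouse exceeded every CTRL mouse.

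Fasn was higher by 0.74 ± 0.26, adjusted p = 0.0177, with AAKO at 6.32 to 7.06 overlapping the upper end of the CTRL range, 4.91 to 6.69. The Fasn call was lost without CTRL fasted replicate 5, the lowest mouse (0.53, adjusted p = 0.0765). Acacb (0.54 ± 0.22, adjusted p = 0.0438) stood near the threshold. It was lost with the replicate number as a block (adjusted p = 0.0530), with no filter on dim probes (adjusted p = 0.0669), with only these 2 groups in the fit (adjusted p = 0.0501) and without any 1 of 9 mice (AAKO fasted replicates 3, 4, 5 and 6, CTRL fasted replicates 1, 3, 4, 5 and 6, values 0.37 to 0.56, adjusted p 0.0542 to 0.161).

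Me1 and Acaca went the other way. Me1 was 1.97-fold lower in AAKO fasted mice (-0.98 ± 0.19, adjusted p = 8.83e-05), at 3.51 to 3.99 against 4.33 to 4.92. Acaca was 1.76-fold lower (-0.82 ± 0.17, adjusted p = 1.53e-04), at 2.21 to 2.81 against 3.14 to 3.56. Neither overlapped. Slc25a1 was lower by a small amount (-0.22 ± 0.08, adjusted p = 0.0225), a call lost without AAKO fasted replicate 1 or CTRL fasted replicate 4, 5 or 6 (-0.20 to -0.19, adjusted p 0.0515 to 0.0678) and with only these 2 groups in the fit (adjusted p = 0.0808).

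Of the transcription factors, Srebf1 (0.38 ± 0.19, adjusted p = 0.0990) and Mlxipl (0.24 ± 0.11, adjusted p = 0.0584) were not called. Srebf1 was called without CTRL fasted replicate 3 (0.53, adjusted p = 0.0157). Mlxipl was called in the authors' deposited values (0.26, adjusted p = 0.0359), under quantile normalization (0.27, adjusted p = 0.0268) and normexp background correction (0.25, adjusted p = 0.0478), with its probes averaged (0.32, adjusted p = 0.00453), and without AAKO fasted replicate 5 or 6 or CTRL fasted replicate 6 (0.27 to 0.29, adjusted p 0.0288 to 0.0479). Neutrophil markers were also higher in AAKO fasted mice, 4 of 5 called, with a summed signal of 3.21 to 6.95 against 0.40 to 6.31 in CTRL fasted mice, and endothelial markers 3 of 5. The defining marker Ly6g was at -0.69 ± 0.29 and -0.42 ± 0.17. Cholangiocyte markers were lower in AAKO fasted mice, 2 of 5, and erythroid markers 1 of 2. Of 7 adipocyte markers 2 were lower and 1 higher, with sums of 3.51 to 5.75 in AAKO against 4.69 to 7.71 in CTRL fasted mice. Of 5 stellate cell markers 1 was lower and 1 higher. The part of these cells in the members' differences was not tested.

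**Figure D3:**
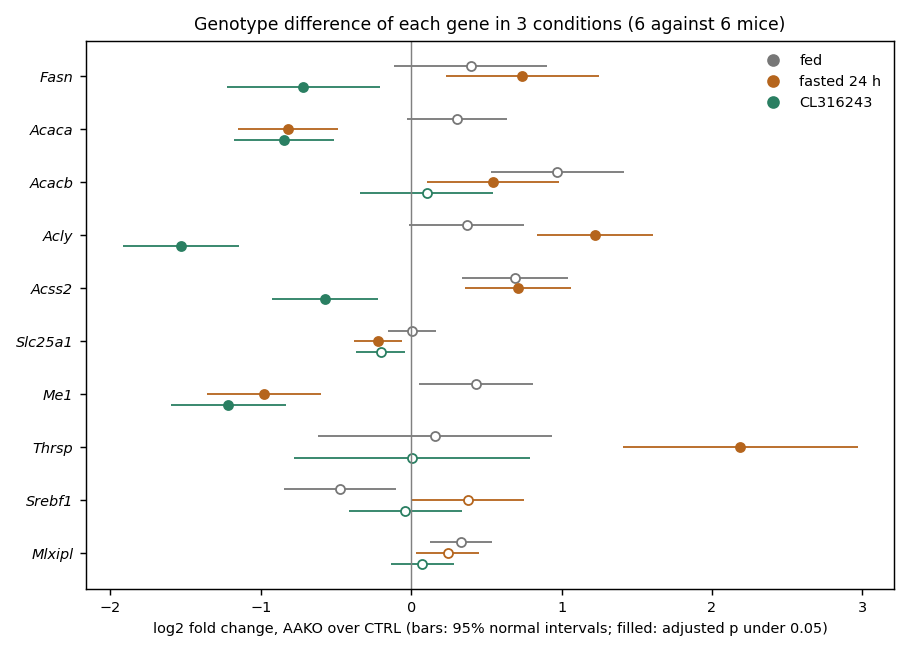
Log2 fold change of AAKO over CTRL (horizontal axis) for each gene in fed (grey), fasted (orange) and CL316243 (green) mice, 6 against 6. Bars are normal intervals from the standard error and filled points are called. Acly lies at 1.22 in fasted and -1.53 in CL316243 mice, and Acaca and Me1 lie below 0 in both.

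After CL316243 the genotype difference ran in 1 direction. Acly, Me1, Acaca, Fasn and Acss2 were lower in AAKO mice and none was higher, 5 of 10 genes called where 24.5% of all genes were called and 11.6% lower. The member median was -0.39, against 0.03 over all genes, and 3 genes did not overlap, where 11.3% of all genes did not. Within wash batches 1 and 2 the count was 4 and 3. It was 3 without AAKO CL316243 replicate 6, CTRL CL316243 replicate 4 or CTRL CL316243 replicate 6. Of the cell markers, 3 of 8 for hepatocytes and 1 of 5 for endothelial cells were higher in AAKO. For adipocytes 1 of 7 and for cholangiocytes 1 of 5 were lower. The part of these cell types was not tested.

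Acly was 2.89-fold lower in AAKO (-1.53 ± 0.20, adjusted p = 7.23e-07), at 4.83 to 5.53 against 6.19 to 7.27 in CTRL. Me1 was 2.32-fold lower (-1.21 ± 0.19, adjusted p = 1.99e-05), at 4.02 to 4.62 against 5.30 to 5.66. Acaca was 1.80-fold lower (-0.84 ± 0.17, adjusted p = 3.57e-04), at 3.91 to 4.75 against 4.87 to 5.66. In these 3 genes all AAKO mice lay below all CTRL mice.

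Acss2 (-0.57 ± 0.18, adjusted p = 0.0189) and Fasn (-0.72 ± 0.26, adjusted p = 0.0409) overlapped between genotypes. The Acss2 call ended on leaving out AAKO CL316243 replicate 6, or CTRL CL316243 replicate 4 or 6 (-0.51 to -0.49, adjusted p 0.0511 to 0.0543). Fasn lost its call on leaving out AAKO CL316243 replicate 1, 2 or 6, or CTRL CL316243 replicate 3, 4 or 6 (-0.67 to -0.62, adjusted p 0.0781 to 0.103), with only these 2 groups in the fit (adjusted p = 0.0504) and with no filter on dim probes (adjusted p = 0.0652). Thrsp (0.01 ± 0.40, adjusted p = 0.994), Srebf1 (-0.04 ± 0.19, adjusted p = 0.912), Mlxipl (0.07 ± 0.11, adjusted p = 0.670) and Acacb (0.10 ± 0.23, adjusted p = 0.790) were not called. Slc25a1 (-0.20 ± 0.08, adjusted p = 0.0676) was called in the authors' deposited values (-0.24, adjusted p = 0.0273), with its probes averaged (-0.23, adjusted p = 0.0494), under normexp background correction (-0.21, adjusted p = 0.0409) and without CTRL CL316243 replicate 5 (-0.23, adjusted p = 0.0476). In Thrsp the AAKO mice spread from 4.44 to 6.85, below and above the CTRL range of 5.23 to 6.53.

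The order of the 6 groups therefore depended on the gene. Fasn, Thrsp, Acss2 and Mlxipl were highest in AAKO fed mice, Srebf1 in CTRL fed mice, Acly, Acaca, Me1 and Slc25a1 in CTRL CL316243 mice, and Acacb in AAKO fasted mice. The lowest group was CTRL fasted for Fasn, Acly, Acss2, Thrsp, Srebf1 and Mlxipl, AAKO fasted for Acaca, Me1 and Slc25a1, and CTRL fed for Acacb. The highest groups were not set apart by more than the larger of the 2 neighbouring SDs for Fasn, Thrsp, Acss2, Acly and Slc25a1. For Acacb no 2 neighbours in the order differed by more than that SD. Fasn formed 4 steps, with both fed groups on top (8.50 ± 0.48 in AAKO and 8.10 ± 0.42 in CTRL), CTRL CL316243 between (7.29 ± 0.41), AAKO fasted and AAKO CL316243 level with each other (6.67 ± 0.26 and 6.57 ± 0.47) and CTRL fasted last (5.93 ± 0.60).

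Whether a response differed between genotypes was tested by interaction contrasts, which subtract the CTRL response from the AAKO response. A shift between experiments common to both genotypes cancels in them. For the fast against fed, 5 members were called, 3 higher (Thrsp, Srebf1, Acly) and 2 lower (Me1, Acaca), where 33.6% of all genes were called, 15.1% higher and 18.6% lower. For CL316243 against fed, 5 were called, all lower (Acly, Me1, Acss2, Acaca, Fasn), where 10.8% of all genes were called and 4.64% lower. For the fast against CL316243, 4 were called, all higher (Acly, Thrsp, Fasn, Acss2), where 31.8% of all genes were called and 13.4% higher. Member medians were -0.03, -0.99 and 0.43, against -0.04, 0.02 and -0.07 over all genes. Within wash batches 1 and 2 these counts were 1 and 4, 1 and 3, and 3 and 1.

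Acly was called in all 3 contrasts, at 0.85 ± 0.28, adjusted p = 0.0167 for the fast against fed, -1.90 ± 0.28, adjusted p = 2.22e-05 for CL316243 against fed and 2.75 ± 0.28, adjusted p = 1.75e-08 for the fast against CL316243. With both Acly probes averaged, the call for the fast against fed was lost (0.58, adjusted p = 0.123). Acly was the member whose genotype difference changed most between the fast and CL316243. Thrsp had 2.03 ± 0.56, adjusted p = 0.00521 and 2.18 ± 0.56, adjusted p = 0.00321 in the contrasts that hold the fast, and -0.15 ± 0.56, adjusted p = 0.921 for CL316243 against fed. Srebf1 was called for the fast against fed (0.85 ± 0.27, adjusted p = 0.0134), a smaller fall in AAKO than in CTRL mice.

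Acaca and Me1 had the same calls. The AAKO response was lower in the fast (Acaca -1.13 ± 0.24, adjusted p = 4.31e-04; Me1 -1.41 ± 0.27, adjusted p = 1.51e-04) and after CL316243 (Acaca -1.15 ± 0.24, adjusted p = 0.00143; Me1 -1.65 ± 0.27, adjusted p = 1.20e-04). Between the fast and CL316243 their genotype differences were not called apart (Acaca 0.03 ± 0.24, adjusted p = 0.953; Me1 0.23 ± 0.27, adjusted p = 0.566). Acss2 joined Acly in the contrasts that hold CL316243 (-1.26 ± 0.25, adjusted p = 0.00104 and 1.28 ± 0.25, adjusted p = 2.25e-04). With all tested probes averaged, both Acss2 calls were lost (-0.38, adjusted p = 0.571 and 0.26, adjusted p = 0.620). Fasn was called in the same contrasts (-1.11 ± 0.37, adjusted p = 0.0458 and 1.46 ± 0.37, adjusted p = 0.00254). The Fasn call of CL316243 against fed was lost without any 1 of 14 of the 24 mice (AAKO CL316243 replicates 1, 2 and 6, AAKO fed replicates 2, 4 and 5, CTRL CL316243 replicates 3, 4 and 6, CTRL fed replicates 1, 2, 3, 5 and 6, values -1.13 to -0.94, adjusted p 0.0545 to 0.103) and with no filter on dim probes (adjusted p = 0.0746). Mlxipl was not called in any of them, nor were Acacb and Slc25a1, although Acacb was called for CL316243 against fed without CTRL fed replicate 4 (-1.07, adjusted p = 0.0109) and Slc25a1 for the fast against fed without CTRL fasted replicate 2 (-0.30, adjusted p = 0.0216).

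Several genes have more than 1 probe, and 26 of the 27 probes were bright enough to test. The 6 tested Acaca probes were all called lower in AAKO than in CTRL mice after CL316243 (-1.13 to -0.76) and parted on the genotype difference in fasted mice. The main probe gave -0.82 ± 0.17, adjusted p = 1.55e-04 and the probe next to it (chr11:84214359-84214418) gave -0.82 ± 0.19, adjusted p = 5.15e-04. Another probe toward the 3′ end (chr11:84211638-84211697) was not well above background in any AAKO fasted mouse. The 3 near the 5′ end (chr11:84009021-84009080, chr11:84006594-84008965 and chr11:83987047-84008941) gave -0.35, -0.32 and 0.14, none called. The last of these differed from the main probe in its genotype difference by 0.96 (exact permutation test over 6 against 6 mice, two-sided, p = 0.00216, adjusted p = 0.0202 over 112 such tests, the smallest p this design allows being 0.00216). Which transcripts each probe detects was not tested.

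Mlxipl probes also disagreed. The main probe fell on fasting in both genotypes, but a second probe further 3′ (chr5:135614195-135614252) changed by 0.16 ± 0.07, adjusted p = 0.0732 in CTRL mice and by 0.52 ± 0.07, adjusted p = 1.29e-07 in AAKO mice. The 2 probes differed in their response by 1.32 in CTRL and 1.77 in AAKO (exact permutation tests, two-sided, adjusted p = 0.0202 each), and all fasted mice lay apart from all fed mice in the ratio of the probes. The third Mlxipl probe, nearer the 5′ end, fell with the main one (-0.88 ± 0.19, adjusted p = 3.46e-04 in CTRL; -0.70 ± 0.19, adjusted p = 0.00192 in AAKO).

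For Acss2, the probe nearest the main one had the same direction and call for the fasted genotype difference (0.66 ± 0.17, adjusted p = 0.00168) and after CL316243 (-0.53 ± 0.17, adjusted p = 0.0207). The 2 probes of another transcript upstream (chr2:155350949-155351008 and chr2:155349318-155349377) fell on fasting too (-1.37 and -0.75 in CTRL mice), but in fasted mice gave genotype differences of -0.34 ± 0.50, adjusted p = 0.611 and -0.77 ± 0.28, adjusted p = 0.0199. With all tested probes averaged, Acss2 had no called genotype difference in fasted mice (0.07, adjusted p = 0.848) or after CL316243 (-0.19, adjusted p = 0.623).

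The second Acly probe (chr11:100365518-100365577) kept the direction of each called Acly difference but was smaller in fasted mice (0.51 ± 0.23, adjusted p = 0.0596). The 2 probes differed there by -0.71 (exact permutation test, two-sided, adjusted p = 0.0359). By the same test they differed in the AAKO response to CL316243, by 0.55 (adjusted p = 0.0202), and in the CTRL response to the fast, by 0.45 (adjusted p = 0.0359). In both the second probe fell less. The second Me1 probe (chr9:86480571-86480630) gave a genotype difference of -1.17 ± 0.19, adjusted p = 5.05e-06 in fasted mice and of -0.57 ± 0.19, adjusted p = 0.0271 after CL316243. These Me1 probes differed after CL316243 by 0.65 (exact permutation test, two-sided, adjusted p = 0.0202). The Thrsp probes had the same calls, with -4.64 and -4.96 for the fast in CTRL mice and 2.19 and 2.28 for the genotype difference in the fast. Of the Acacb probes, 1 in the middle of the gene (chr5:114667674-114667733) stayed near 0 for the genotype difference in fasted mice (-0.08 ± 0.10, adjusted p = 0.551) while the probe nearest the 5′ end gave 0.52 ± 0.11, adjusted p = 2.71e-04. Fasn and Srebf1 have 1 probe each, so no second probe was compared.

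**Figure D4:**
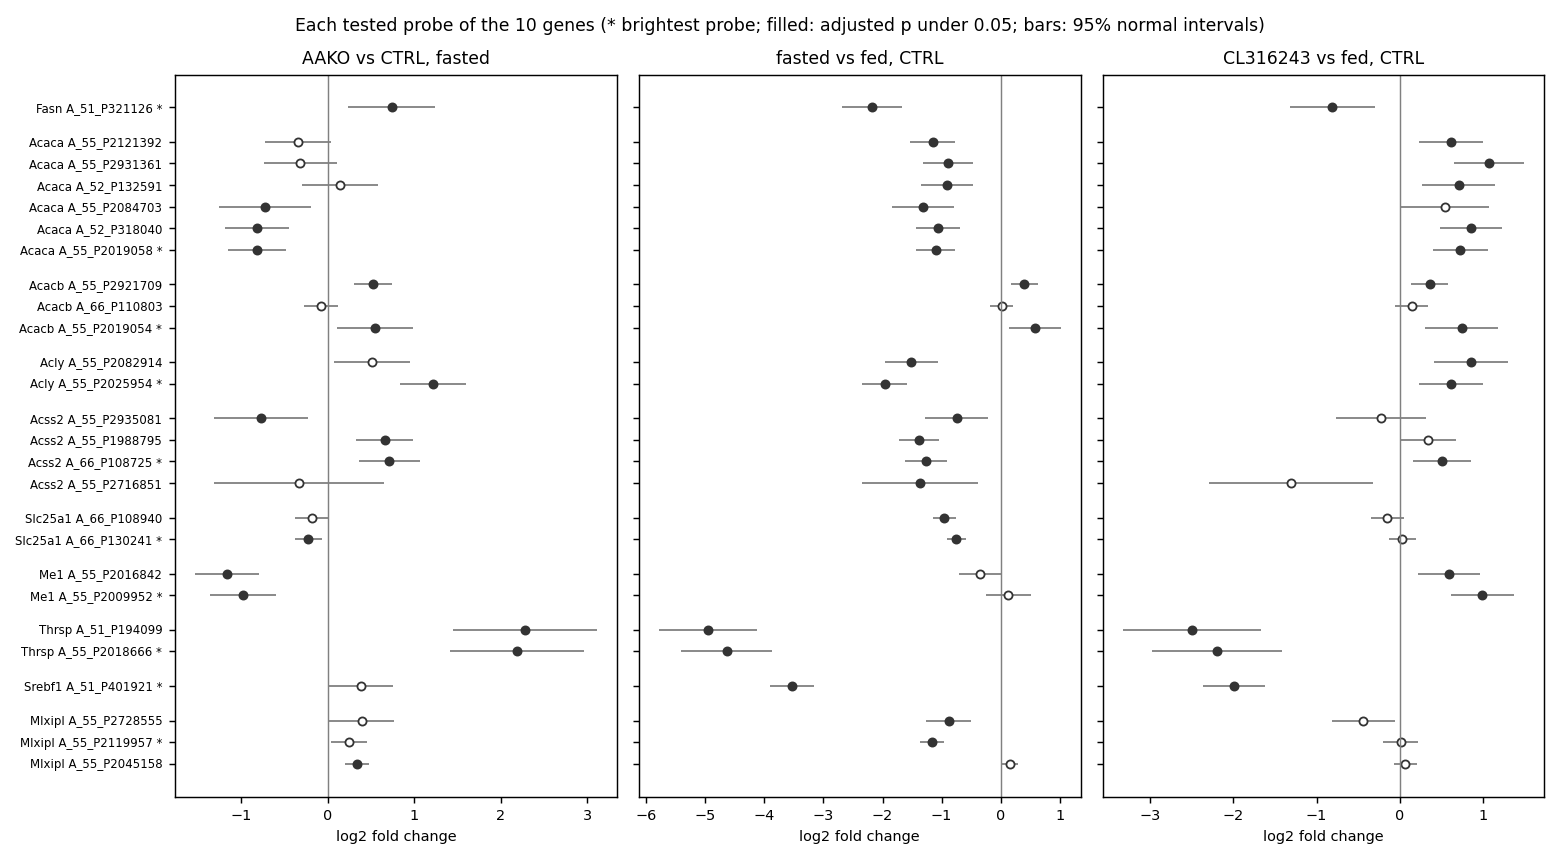
Log2 fold change (horizontal axis) of every tested probe, by gene and by the probe's position in its own transcript (vertical axis), for 3 comparisons of 6 against 6 mice. Filled points are called, bars are normal intervals from the standard error, and asterisks mark the main probe. In the left panel the 3 upper Acaca probes are not called and the lower ones are, though the lower one nearest them was not well above background in AAKO fasted mice, and the lowest Mlxipl probe lies at 0.16 in the middle panel where the main one lies at -1.16.

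Within groups, mice that were high for 1 enzyme tended to be high for others. After each group's mean was taken off, 41 of the 45 pairs of members had a Pearson r above 0 over the 36 mice, with a median r of 0.419. In 21 pairs the permutation p of Pearson's r, adjusted over the 45 pairs, was under 0.05, and in 12 pairs that of Spearman's rho was as well. The tightest pair was Acaca and Acly (r = 0.757, rho = 0.725, permutation tests, adjusted p = 0.00036 and 0.00063). Without the 2 mice farthest from the median of Acaca, r was 0.632, and within wash batches 1 and 2 it was 0.792 and 0.650. These mice share group and array platform, and array-wide shifts can move all genes of an array together.

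Acly and Acss2 followed (r = 0.704, rho = 0.641, permutation, adjusted p = 0.00036 and 0.00063; 0.616 without 2 mice, 0.793 and 0.632 within wash batches). Fasn went most with Mlxipl (r = 0.679, rho = 0.695, permutation, adjusted p = 0.00036 and 0.00063; 0.644 without 2 mice, 0.759 and 0.527 within wash batches) and with Me1 (r = 0.647, rho = 0.697, permutation, adjusted p = 0.00036 and 0.00063; 0.613 without 2 mice, 0.701 and 0.579 within wash batches). With Srebf1, Fasn had r = 0.586 and rho = 0.614 (permutation, adjusted p = 0.0094 and 0.0052; 0.546 without 2 mice, 0.564 and 0.656 within wash batches). Slc25a1 stood apart: its median r to the other members was 0.0245, from -0.350 with Acacb to 0.386 with Me1, and none of its 9 pairs had an adjusted p under 0.05.

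**Figure D5:**
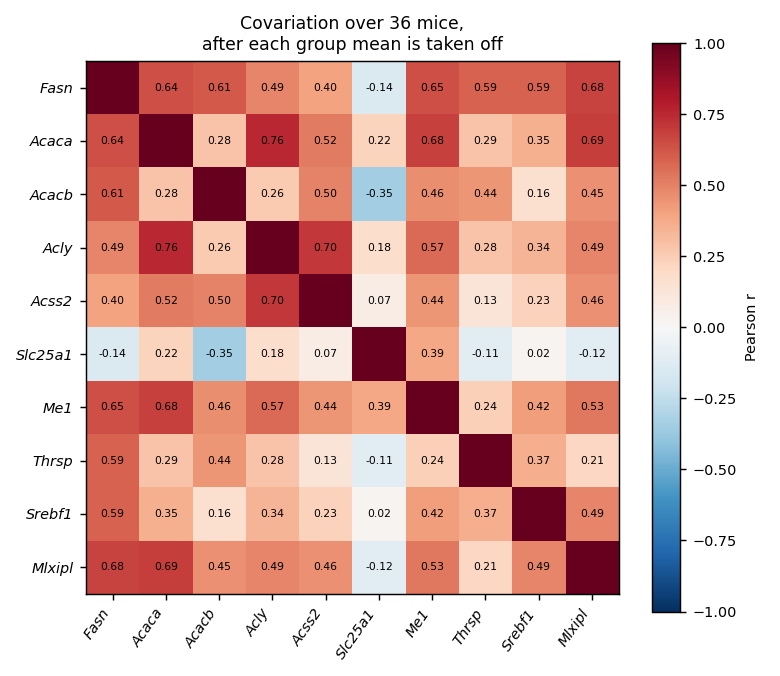
Pearson r between each pair of the 10 genes over 36 mice after each group's mean was subtracted (both axes list the genes; colour and printed number give r). Most cells are red, with 0.76 for Acaca and Acly, while the row of Slc25a1 is pale.

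The genes outside the set whose levels over the 36 arrays were most like the members' mean standardised profile were Tuba1b (r = 0.939), Paox (0.939), Gbe1 (0.933), Sc5d (0.930) and Tmem14a (0.928), of 24241 genes compared. After group means were taken off, Gbe1 (0.776), Pygl (0.768), Khk (0.730), Prkaa2 (0.728) and Entpd5 (0.709) came first. These are descriptions of likeness over arrays that share groups and wash batches.

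Other genes of the pathway were read from lists. Their counts are to be read beside the shares of all genes tested. On fasting 43.8% were called in CTRL (19.8% higher, 24.0% lower) and 63.6% in AAKO (36.1% lower). Between genotypes 49.2% were called in fasted mice (22.0% higher, 27.2% lower) and 24.5% after CL316243 (11.6% lower). Among 12 genes that control SREBP or work with LXR, 5 rose and 6 fell on fasting in CTRL mice (list median -0.04), and 6 rose and 5 fell in AAKO. Insig2, which holds SREBP in the endoplasmic reticulum, rose (3.25 ± 0.19, adjusted p = 1.93e-14 in CTRL; 3.50 ± 0.19, adjusted p = 3.91e-16 in AAKO). Insig1, its close relative and itself a target of SREBP, fell (-3.68 ± 0.17, adjusted p = 2.46e-16; -1.88 ± 0.17, adjusted p = 4.14e-11). Pnpla3, a lipid droplet protein driven by SREBP-1c, fell too (-1.88 ± 0.52, adjusted p = 0.00365; -2.40 ± 0.52, adjusted p = 1.64e-04), although it was well above background in only 4 CTRL fasted, 3 CTRL CL316243 and 1 AAKO CL316243 mice. No size is given for its change after CL316243.

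In the fasted genotype comparison 7 of these 12 were higher and 2 lower in AAKO mice (list median 0.25, against -0.03 over all genes), with Insig1 (1.95 ± 0.17, adjusted p = 1.01e-10) and the coactivator Ppargc1b (1.79 ± 0.29, adjusted p = 5.91e-06) highest and the LXR gene Nr1h3 lowest (-0.60 ± 0.05, adjusted p = 7.72e-11). After CL316243, 3 were higher and 4 lower in AAKO (list median -0.10), from Insig1 (0.69 ± 0.17, adjusted p = 0.00344) to Insig2 (-1.04 ± 0.19, adjusted p = 1.17e-04). Against fed mice, CL316243 went with lower Insig1 (-1.32 ± 0.17, adjusted p = 1.54e-06 in CTRL; -0.78 ± 0.17, adjusted p = 7.35e-04 in AAKO).

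The 9 genes around ChREBP moved in both directions on fasting, 3 up and 4 down in CTRL and 3 up and 4 down in AAKO (list medians -0.35 and 0.03). Arrdc4 (2.10 ± 0.13, adjusted p = 4.66e-14 in CTRL; 3.13 ± 0.13, adjusted p = 2.98e-18 in AAKO) and Txnip (1.90 ± 0.25, adjusted p = 2.38e-07; 3.85 ± 0.25, adjusted p = 2.20e-14), both glucose-responsive arrestin-like genes, rose. Pklr, the liver pyruvate kinase, fell in CTRL (-1.07 ± 0.26, adjusted p = 9.78e-04) and was not called in AAKO (0.05 ± 0.26, adjusted p = 0.889).

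Between genotypes, Txnip (1.95 ± 0.25, adjusted p = 1.16e-07) and Arrdc4 (0.93 ± 0.13, adjusted p = 3.95e-07) were higher in AAKO fasted mice, and Tkfc (-0.99 ± 0.16, adjusted p = 7.54e-06) was lower, 3 higher and 4 lower in all. After CL316243, 5 of 9 were lower in AAKO and 1 higher (list median -0.52, against 0.03 over all genes), with Txnip (-1.37 ± 0.25, adjusted p = 1.21e-04) and Pklr (-1.22 ± 0.26, adjusted p = 6.15e-04) lowest and the ChREBP partner Mlx (0.75 ± 0.09, adjusted p = 1.26e-07) the 1 that was higher.

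Of 14 genes that act on the carboxylases or their product, 5 rose and 4 fell on fasting in CTRL and 6 rose and 6 fell in AAKO. Mid1ip1, whose protein pairs with that of Thrsp and promotes carboxylase polymerisation, fell most of this list in both genotypes (-3.41 ± 0.23, adjusted p = 3.27e-13; -2.61 ± 0.23, adjusted p = 1.51e-11). Trib3 (2.04 ± 0.32, adjusted p = 3.14e-06; 2.68 ± 0.32, adjusted p = 7.83e-09) and Cpt1a, the malonyl-CoA-sensitive gate to mitochondrial oxidation (1.04 ± 0.11, adjusted p = 8.16e-09; 1.33 ± 0.11, adjusted p = 1.03e-11), rose. In the genotype comparisons 2 were higher and 3 lower in AAKO fasted mice, where 49.2% of all genes were called. After CL316243, 1 was higher and 4 lower in AAKO, where 24.5% of all genes were called. The gamma 2 subunit of AMP kinase, Prkag2, was lower in both comparisons (-0.49 ± 0.15, adjusted p = 0.00861; -0.83 ± 0.15, adjusted p = 1.39e-04). CL316243 against fed went with lower Mid1ip1 (-1.63 ± 0.23, adjusted p = 4.45e-06 in CTRL; -1.24 ± 0.23, adjusted p = 9.63e-05 in AAKO).

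Cytosolic NADPH can also come from the pentose phosphate pathway and from Idh1. Of 7 such genes, 5 fell and 1 rose on fasting in CTRL (list median -0.54, against -0.05 over all genes), and 6 fell and 1 rose in AAKO (-0.93, against -0.10). H6pd, which works inside the endoplasmic reticulum, was the 1 that rose (0.67 ± 0.13, adjusted p = 7.33e-05; 1.35 ± 0.13, adjusted p = 8.85e-11). Idh1, the cytosolic isocitrate dehydrogenase, was lower in AAKO than in CTRL fasted mice (-1.93 ± 0.10, adjusted p = 2.39e-15), in the direction of Me1, and after CL316243 as well (-0.42 ± 0.10, adjusted p = 0.00276). In all, 3 of 7 were lower and 1 higher in AAKO fasted mice, where 27.2% of all genes were lower and 22.0% higher. After CL316243, 3 were lower and 0 higher, where 11.6% of all genes were lower.

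The 14 tested genes of citrate and acetyl-CoA supply were mixed, with 6 up and 4 down on fasting in CTRL and 4 up and 6 down in AAKO. Aacs, a cytosolic enzyme that turns acetoacetate into a precursor of lipids, fell with the members (-3.37 ± 0.31, adjusted p = 2.24e-10; -2.51 ± 0.31, adjusted p = 1.89e-08), while Acss3 (1.86 ± 0.36, adjusted p = 7.40e-05; 1.08 ± 0.36, adjusted p = 0.00929) and Acot12, which splits cytosolic acetyl-CoA (1.11 ± 0.13, adjusted p = 1.89e-08; 1.57 ± 0.13, adjusted p = 2.87e-12), rose. In AAKO fasted mice Aacs was higher (1.28 ± 0.31, adjusted p = 8.83e-04) and Acss3 lower (-0.98 ± 0.36, adjusted p = 0.0230). In all 3 genes were higher and 3 lower, where 49.2% of all genes were called. After CL316243, 5 were lower and 1 higher in AAKO, Acss3 lowest (-1.39 ± 0.36, adjusted p = 0.00439).

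Downstream of palmitate, 3 of 5 desaturation and elongation genes fell on fasting in CTRL and 4 in AAKO (list medians -0.65 and -1.33). Elovl6, which extends palmitate, fell (-2.03 ± 0.24, adjusted p = 2.93e-08; -2.63 ± 0.24, adjusted p = 3.39e-11), as did the delta 9 desaturase Scd1 (-1.75 ± 0.19, adjusted p = 7.80e-09; -1.76 ± 0.19, adjusted p = 1.72e-09), while Elovl5, which extends polyunsaturated chains, rose (1.71 ± 0.15, adjusted p = 1.37e-10; 0.91 ± 0.15, adjusted p = 4.47e-06). In AAKO mice 3 of 5 were lower when fasted and 4 of 5 after CL316243, with none higher, and Elovl5 was the lowest in both (-1.04 ± 0.15, adjusted p = 1.10e-06; -1.12 ± 0.15, adjusted p = 2.08e-06). Neither Scd1 difference between genotypes was called (0.12 ± 0.19, adjusted p = 0.638; 0.21 ± 0.19, adjusted p = 0.473).

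Of 8 glycerolipid genes, 4 rose and 1 fell on fasting in CTRL, and 4 rose and 4 fell in AAKO. Lpin1, a phosphatidate phosphatase, rose in AAKO (3.27 ± 0.48, adjusted p = 4.36e-07) and was not called in CTRL (-0.01 ± 0.48, adjusted p = 0.985). Its genotype difference in fasted mice was the highest of these pathway lists (3.22 ± 0.48, adjusted p = 1.31e-06), while Gpd1, which makes glycerol 3-phosphate, was lower (-2.16 ± 0.15, adjusted p = 3.41e-13). After CL316243, 5 of 8 were lower in AAKO and none higher (list median -0.61, against 0.03 over all genes), with Gpam (-1.14 ± 0.19, adjusted p = 2.59e-05) and Gpd1 (-1.08 ± 0.15, adjusted p = 1.60e-06) lowest. The 8 tested genes of the separate mitochondrial fatty acid synthesis pathway had a list median of -0.04 on fasting in AAKO and of -0.18 and 0.01 between genotypes in fasted and CL316243 mice, and no member of that list was called between genotypes after CL316243.

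None of the pathway lists had a gene called between genotypes in fed mice, as none of the members did. For all genes tested, the split of calls depended on the scaling: in the authors' deposited values the share of calls that were higher was 56.2% in place of 45.1% for the fast in CTRL mice, 66.7% in place of 52.6% for the genotypes when fed, 42.3% in place of 52.7% for the genotypes after CL316243, 59.9% and 58.1% in place of 48.0% and 43.3% for the fast against CL316243 in CTRL and AAKO, and 44.1% and 54.9% in place of 57.2% and 42.0% for the interactions that hold CL316243. With normexp background correction it was 32.7% for the fast against CL316243 in AAKO. In the fast against CL316243 in AAKO mice the median of all genes was -0.083 in the main values and 0.053 in the authors' values, and in the fast against fed in AAKO mice it was -0.095 and 0.012. Fasn, Acly, Acaca and the other members kept the direction of every called difference in the authors' values. In those values all arrays of a group share the same median, so scaling and group cannot be told apart there.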

How the data were processed

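Agilent 1-colour arrays of 36 mouse livers were used, 6 in each of 6 groups. The deposited intensity per spot is the processed signal, which the authors extracted with Feature Extraction 10.10.1.1 (per the submitters' processing notes), with a background correction already applied per the file headers. The authors' deposited log2 table, 36898 probes whose normalization and probe filter are not given in the sources used here, served as an alternative. Its columns follow the log2 intensity of their own arrays (r 0.99957 to 0.99981). As rounded, all columns of a group share the same median, and these medians differ between groups, from 6.88 to 7.01. The scaling of that table therefore cannot be told apart from group, and calls gained or lost in it are not an independent check.

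Flagged outlier spots (0.127%) were dropped, log2 intensity was set relative to the 75th percentile of each array over 56605 probes, spots of a probe were averaged, and a gene took its brightest probe. A gene was tested if well above background on at least 5 arrays of a group. limma 3.58.1 in R 4.3.3 fitted all 36 arrays, with group means and wash batch (2 batches) as terms, and Benjamini-Hochberg adjustment over 24251 genes. On simulated data for AAKO against CTRL fasted over these genes, 82% of changes of 1 and 98% of changes of 2 log2 units were recovered (100 genes each), and 11 unchanged genes were called. The simulated noise was independent between genes, held no wash batch effect, and no other gene was changed. These rates therefore need not hold in the real comparison, where 11922 genes were called. Exact permutation tests compared probes, and 100000 permutations were drawn per correlation.

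All members are named. From each pathway list at most the 2 highest and 2 lowest called genes per comparison are named, with their values in other comparisons; 1 gene that this rule names is not reported here. Members and lists were chosen with earlier results of these data known, and the probe comparisons after probe values were seen. Alternatives were quantile normalization, normexp correction, the authors' table, no dim-probe filter, averaged probes, other model terms, single wash batches and leaving out each mouse. Replicate numbers did not pair samples: over 90 same-number pairs, r ran from -0.200 to 0.259 (median 0.00432), and 14 exceeded 0.1. Depth is not defined for arrays; their number limits the precision. Which exon a probe lies in was not analysed here.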

Additional observations from a re-analysis of the deposited data

Results flagged for a closer look

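Among the 60 sets of 6 mice (10 genes in 6 groups), 4 held a mouse far from the others, where chance alone gives about 1 in 20. Acly in CTRL fed replicate 4 was at 7.066, with the nearest mouse at 6.061. Srebf1 in AAKO fasted replicate 3 was at 4.090, with the nearest at 3.869. CTRL fed replicate 6 was low for Srebf1, at 6.475 against 7.042 for the nearest mouse, and for Slc25a1, at 4.097 against 4.437.

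Responses that differed between genotypes by the interaction test in limma concern 7 of the 10 genes. For the fast against fed, the AAKO response minus the CTRL response was 2.032 for Thrsp, 0.8547 for Srebf1, 0.8523 for Acly, -1.126 for Acaca and -1.411 for Me1. For CL316243 against fed it was -1.901 for Acly, -1.645 for Me1, -1.261 for Acss2, -1.151 for Acaca and -1.113 for Fasn. For the fast against CL316243 it was 2.753 for Acly, 2.183 for Thrsp, 1.457 for Fasn and 1.283 for Acss2. All have an adjusted p under 0.05 over all genes, and the report gives each with its standard error.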

How the results depend on the processing

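The count of called members moved by more than 1.5 times under few alternatives. With only the compared groups in the fit, CL316243 against fed in CTRL gave 5 in place of 8. Within wash batch 1 that comparison gave 2, and the interactions of the fast against fed and of CL316243 against fed gave 1 each. Within wash batch 2, CL316243 against fed gave 4 in CTRL and 3 in AAKO, the genotypes after CL316243 gave 3, and the interactions of CL316243 against fed and of the fast against CL316243 gave 3 and 1. Wash batches hold 2 to 4 mice per group. With 1 mouse left out, counts ran from 0 to 3 for the genotypes when fed, 5 to 8 when fasted and 3 to 6 after CL316243, and from 5 to 8 for CL316243 against fed in CTRL. The replicate block, with a number the samples share and no known pairing behind it, gave 7 in place of 8 for the genotypes when fasted, 7 in place of 6 for CL316243 against fed in AAKO, and the main count elsewhere. Only 1 member value changed sign where either fit called it. It was Acss2 in CL316243 against fed in CTRL, at -0.17 with all its tested probes averaged. Of the other member values under alternatives, 123 lost a call, 32 gained 1 and 2964 kept their side of the threshold. Uncalled values among the 2964 could change sign. Thrsp did so for the genotypes after CL316243, at -0.16 to 0.295 with 1 mouse left out. With slide as a random block (consensus correlation -0.00996), all 120 member values kept their call. The causes were not tested. Probes not well above background bound only what a dim group holds, which among members touches secondary probes of Acaca.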
